A study of Homo sapiens and Mus musculus with 19 samples.

Results

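Chromatin-associated RNA (caRNA) of 35 genes of the integrated stress response was examined in mouse embryonic stem (mES) cells. The 35 genes encode ATF4, its partner transcription factors, and stress, serine synthesis, amino acid synthesis and amino acid transport proteins whose genes are known as ATF4 targets. They were listed by symbol and chosen from a result of these same libraries, namely that Chac1, Pck2 and Cth stood among the largest decreases under siNsun2. All 35 were found among the 54446 genes counted in each mouse library, and all 35 passed the filter on low counts, which 27603 genes passed. Since that contrast chose the genes, their differences in mES cells are given as a description, with no p-value.

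The mES cells carried the label Nsun2 knockdown (siNsun2) or were transfected with a control siRNA (siControl), with 3 libraries each, and the libraries hold the RNA that stays with chromatin after cytoplasm and nucleoplasm are washed away. Nsun2 encodes an RNA methyltransferase that places 5-methylcytosine (m5C), and the study asks how m5C on caRNA and its oxidation by TET2 act on chromatin. All mES cells were kept in serum with LIF and the inhibitors CHIR99021 and PD0325901, in a medium with added glutamine and non-essential amino acids, and were passaged on gelatin to clear feeder cells. The knockdown is a transient transfection of the whole culture, and no source used here says how many siRNAs were given to these libraries. The series also holds 1 mES library labelled Pspc1 WT, and 12 libraries of K562, a human chronic myeloid leukaemia line with wild-type TET2 (TET2 WT) or a TET2 knockout (TET2 KO), each with a control hairpin (shControl) or a hairpin against MBD6 (shMBD6) at 3 libraries a group. Hairpin lines were made by lentivirus and kept in puromycin. The study's methods state replicates for each condition and its legends call genome-wide data biological replicates, while the labels do not say whether the libraries of a group came from separate cultures. P-values therefore measure the spread between these libraries, whatever part of it is technical.

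The integrated stress response starts when a kinase (HRI, PKR, PERK or GCN2) phosphorylates the translation initiation factor eIF2, which slows translation in general and raises that of ATF4. ATF4 pairs with C/EBP family proteins, binds a composite C/EBP-ATF response element and switches on genes for amino acid uptake and synthesis, serine and one-carbon metabolism, aminoacyl-tRNA synthetases and, in prolonged stress, the factor CHOP (Ddit3) and its targets. In pluripotent cells serine, glycine and threonine feed the one-carbon pool used for nucleotides and for methylation.

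The response element is shown here on human promoters, since mouse promoter sequences were not used. RefSeq windows of 250 bases before to 50 bases after each annotated gene start (GRCh38.p14) were matched by symbol for 27 of the 35 orthologues, and were not matched for ALDH1L2, EIF4EBP1, NUPR1, PSPH, PYCR1, SHMT2, SLC7A11 and SLC7A3. The 9 letters TGATGNAAN, where N is any base, were searched on both strands in every window of a gene. They occurred in 9 of the 27 (33.3%), and in 1215 of 27305 genes with a window (4.45%). The 9 windows follow, written along the gene's strand, with the motif or its reverse complement in capitals and 10 bases on each side where the window allows.
ASNS, chr7:97872458-97872486, minus strand: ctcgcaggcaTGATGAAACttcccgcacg
ATF3, chr1:212565206-212565234, plus strand: aaggtcaggaTGATGGAAGgctgtcatat
CEBPG, chr19:33374061-33374089, plus strand: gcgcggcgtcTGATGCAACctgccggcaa
CHAC1, chr15:40953251-40953279, plus strand: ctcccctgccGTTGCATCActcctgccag
HERPUD1, chr16:56931955-56931983, plus strand: gacgcggcggGTTGCATCAgcccgtgccc
MTHFD1L, chr6:150866347-150866375, plus strand: ccgccggctcTGATGCAATcgcgccgggc
SLC1A4, chr2:64989381-64989409, plus strand: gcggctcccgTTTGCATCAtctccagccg
SLC3A2, chr11:62881725-62881748, plus strand: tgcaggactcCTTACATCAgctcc
SLC7A1, chr13:29595663-29595691, minus strand: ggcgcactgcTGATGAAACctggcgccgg
A match describes these letters in these windows and is not a measured site of binding. The amino acid transporter genes SLC1A4, SLC3A2 and SLC7A1, the asparagine synthetase gene ASNS and the glutathione-degrading enzyme gene CHAC1 are among the 9.

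Libraries held 62989044 to 66832780 gene counts in siControl and 58078323 to 59411087 in siNsun2. Nsun2 itself stood at 133, 126 and 130 CPM (the count of a gene scaled to the library's total of gene counts and by TMM) in siControl and at 98.8, 106 and 103 CPM in siNsun2, so that the groups did not overlap and the level was 79.2% of that in siControl (log2 difference -0.34 ± 0.03 SE, adjusted p = 2.78e-16, edgeR quasi-likelihood test with Benjamini-Hochberg adjustment). Differences over all genes moved with level, with a Spearman correlation of -0.536 across 27603 genes between level and log2 difference, given as a description since genes are not independent replicates. The share of reads assigned to no annotated gene was 28.9% to 29.9% of read records in siNsun2 and 19.6% to 20.2% in siControl. The counts were taken to be stranded, so such reads can lie outside genes or be antisense to a gene. The level of 1407 olfactory receptor genes, silent in these cells, was 0.0391 in siNsun2 against 0.0259 CPM per kb of gene span in siControl. The median gene moved by 0.14 on the log2 scale with TMM scaling and by 0.32 when libraries were scaled on total gene counts, so that a level near zero change depends on the scaling. Of 8 embryonic stem cell markers 7 were measured, and their summed level was 1238 to 1279 CPM in siControl and 1057 to 1081 CPM in siNsun2. Their log2 differences ran from -0.81 for Klf4 to 0.01 for Pou5f1. Of the 7, 6 were called lower and 0 higher, against 24.3% and 25.8% of all genes tested. With total gene counts 3 were lower and 1 higher, beside 2595 and 10232 of all 27603 genes tested. Sox2, the eighth, was listed at 0 in every library and lies inside Sox2ot on the same strand, where overlapping reads are set aside. The 8 feeder fibroblast markers, none of them at 0, summed to 38.5 to 41.6 CPM and 35.1 to 36.8 CPM, with 2 called lower and 1 higher, but 0 lower and 2 higher with total gene counts as the scaling. The part of these shifts in the results was not tested.

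In siControl the 35 genes spanned a wide range of levels. Per kb of gene span, introns included, Asns was highest at 23.3 ± 0.117 CPM per kb (SD, n = 3), and Atf4 itself was next at 13.7 ± 0.504. Eif4ebp1, encoding the translation repressor 4E-BP1, stood at 11.6 ± 0.0712 CPM per kb and the mitochondrial serine hydroxymethyltransferase gene Shmt2 at 8.68 ± 0.648. These 4 did not overlap their neighbours in the order. Cth at 3.94, Pck2 at 3.91, Chac1 at 3.53 and Slc7a3 at 3.32 CPM per kb followed the transporter genes Slc3a2 and Slc7a5, and each overlapped the next in the order. The lowest were Atf3 at 0.205, Aldh1l2 at 0.151 and Slc7a11 at 0.0309 CPM per kb, which did not overlap each other. Slc7a11 was 1.20 times the level of the olfactory receptor genes, whereas the other 34 were 5.84 to 898 times that level in siControl. The order rests on the length used. Per kb of exon Asns stayed at the top with 154 CPM per kb, Mthfd1l rose from place 24 to place 3, and Atf4 moved from place 2 to place 14.

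Under siNsun2 the mean levels of 33 of the 35 genes were lower, all but the transporter genes Slc7a11 and Slc7a3, with Sesn2 at 0.02 when scaled on total gene counts. The summed level of the 35 was 2348 to 2393 CPM in the siControl libraries and 1461 to 1495 CPM in the siNsun2 libraries. The median log2 difference of the 35 was -0.68, with a range from -2.01 to 0.51, beside 0.14 over all genes tested. In all 3 siNsun2 libraries 31 genes were below all 3 siControl libraries, against 26.3% of all genes tested, and 1 gene was above. By adjusted p under 0.05, 31 were called lower and 2 higher, against 24.3% and 25.8% of all genes tested, and nothing is read from these counts because the contrast chose the list. With total gene counts as the scaling 26 were lower and 2 higher, beside 2595 lower and 10232 higher of all 27603 genes tested. The median of the 35 was then -0.50, and it lay 0.82 below that of all genes under both scalings. A change of scaling moves all genes nearly alike, so this gap could hardly change and nothing is read from it. The 5534 genes tested with a mean of at least 5 log2 CPM had medians of -0.21 with TMM and -0.03 with total gene counts. In a bulk library fewer cells of a type and less RNA per cell cannot be told apart.

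**Figure D1:**
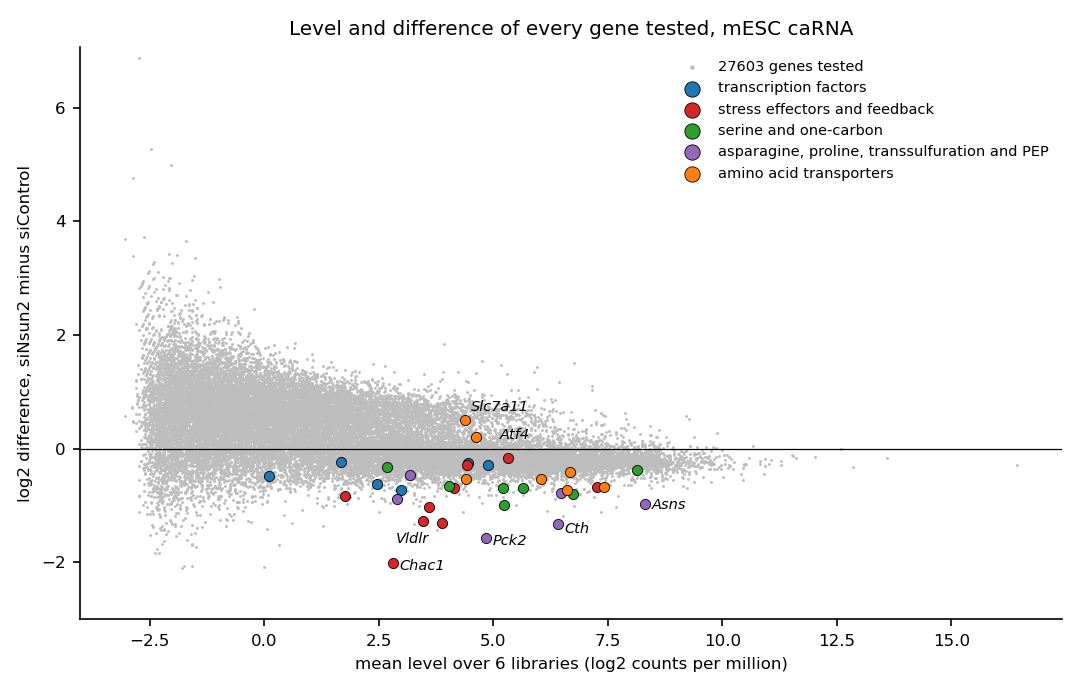
Log2 difference, siNsun2 minus siControl (vertical axis), against the mean level over the 6 libraries in log2 CPM (horizontal axis) for the 27603 genes tested in mES cells, with the 35 genes coloured by role. Chac1, Pck2 and Cth lie at the lower edge of the cloud at their levels, and Slc7a11 and Slc7a3 are the coloured points above 0.

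The 35 genes are set here beside protein-coding genes of like level. Among protein-coding genes of 2 to 4 log2 CPM the median difference was -0.03 and the 5th percentile -0.46, while 9 of the 35 genes in that range had a median of -0.88 and 8 of them lay below that percentile. From 4 to 6 log2 CPM the coding median was -0.17, the 13 genes in the range had a median of -0.53, and 7 lay below the 5th percentile of -0.44. From 6 to 9 log2 CPM the coding median was -0.22, the 10 genes had a median of -0.71, and 8 lay below -0.45. The remaining 3 genes, from 0 to 2 log2 CPM, had a median of -0.49 where the coding median was 0.42. Over all genes tested, 10 of the 35 were among the 276 genes in the lowest 1% of differences and 25 among the lowest 5%. Because the same contrast chose the list, these counts and those by level are a description, and nothing is read from them. The median span of the 35 genes was 18.1 kb, against 21.9 kb for the 18588 protein-coding genes tested.

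**Figure D2:**
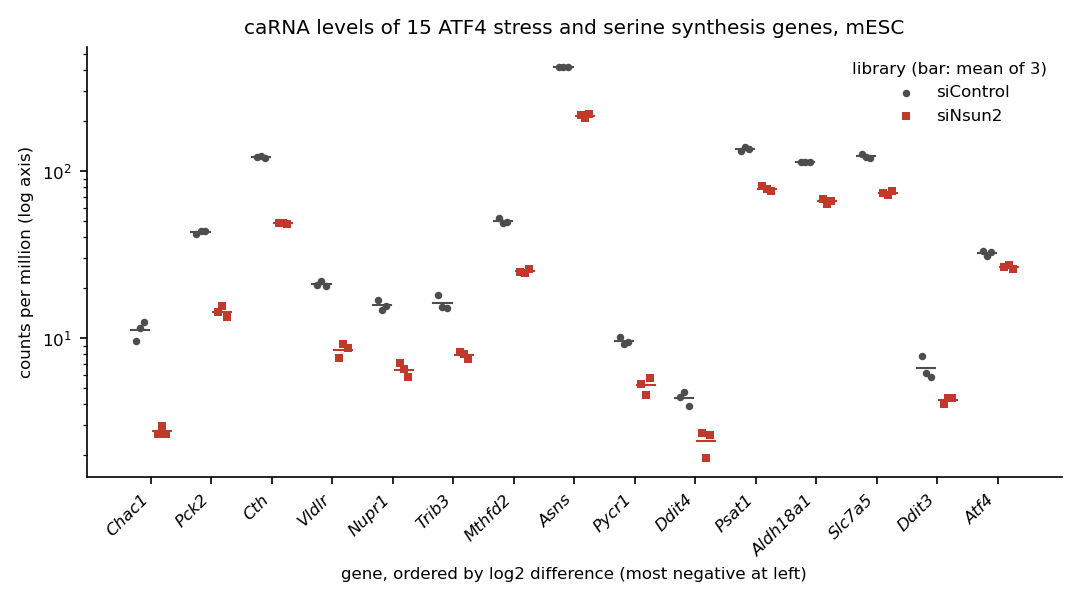
CPM on a log axis in each of the 3 siControl and 3 siNsun2 libraries for the 15 genes described one by one, ordered by log2 difference, with a bar at each group's mean. The groups do not overlap for any of the 15, and the gap is widest for Chac1 at the left and narrowest for Atf4 at the right.

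Among the transcription factors, Atf4 stood at 33.2, 31.0 and 32.7 CPM in siControl and at 26.6, 27.4 and 25.7 CPM in siNsun2. Atf4 (chr15:80255184-80257541, plus strand, mm10) was thus lower in each siNsun2 library at 82.2% of the siControl mean, a log2 difference of -0.28 ± 0.06 (SE), which was -0.10 with total gene counts as the scaling. Ddit3, which encodes CHOP, the factor tied to cell death in prolonged stress, was at 7.80, 6.13 and 5.85 CPM against 4.03, 4.37 and 4.36 CPM. All 3 siNsun2 values of Ddit3 lay below the lowest siControl value, at a log2 difference of -0.63 ± 0.13, although a second gene model on the same strand carries the name Ddit3 and shared reads are set aside. Atf3, an ATF4-induced repressor, differed by -0.72 ± 0.11 and was the largest of the 6, and Cebpg, a dimer partner of ATF4, by -0.25 ± 0.07, which was -0.07 with total gene counts. Under that scaling 2 of the 6 were called lower, against 4 with TMM. Cebpb and Atf5 had log2 differences of -0.49 ± 0.29 and -0.24 ± 0.17 and were the 2 genes of the 35 called in neither direction. Cebpb was also the lowest of the 35 in CPM, at 1.22 ± 0.0378 in siControl and 0.873 ± 0.174 in siNsun2 (SD, n = 3).

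The stress effectors and feedback genes held the gene with the largest difference of all 35. Chac1 (ENSMUSG00000027313.3, chr2:119351229-119354381, plus strand, mm10) encodes an enzyme that degrades glutathione and is a late target of the ATF4 and CHOP branch. It stood at 9.57, 11.4 and 12.4 CPM in siControl and at 2.66, 2.97 and 2.66 CPM in siNsun2. Its level was 24.8% of that in siControl, with a log2 difference of -2.01 ± 0.12 (SE), rank 5 from the lowest of 27603 genes. Vldlr, a lipoprotein receptor gene, was at 20.7, 21.9 and 20.5 CPM against 7.57, 9.14 and 8.67 CPM. Nupr1, a stress-induced nuclear protein gene, was at 16.8, 14.7 and 15.6 CPM against 7.08, 6.47 and 5.84 CPM. Vldlr and Nupr1 stood at 40.2% and 41.2% of siControl, with no overlap between groups and log2 differences of -1.31 ± 0.08 and -1.28 ± 0.10.

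Trib3, a pseudokinase that feeds back on ATF4 and CHOP, was at 18.2, 15.2 and 15.2 CPM in siControl and 8.26, 8.03 and 7.49 CPM in siNsun2, a log2 difference of -1.03 ± 0.09. Ddit4, encoding the mTORC1 inhibitor REDD1, was at 4.40, 4.72 and 3.90 CPM against 2.71, 1.91 and 2.62 CPM, with a log2 difference of -0.84 ± 0.17 on the lowest counts of the 9. No siNsun2 library reached the lowest siControl library for either gene. Herpud1, which acts in endoplasmic reticulum (ER) associated degradation, and Eif4ebp1 differed by -0.70 ± 0.07 and -0.67 ± 0.03. Stc2, a secreted glycoprotein gene, and Sesn2, a leucine sensor that restrains mTORC1, differed least, at -0.29 ± 0.07 and -0.16 ± 0.05. The value of Sesn2 was 0.02 with total gene counts as the scaling, and that of Stc2 was -0.11. The 9 genes had a median of -0.84 and summed to 340 to 349 CPM in siControl and 214 to 221 CPM in siNsun2.

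**Figure D3:**
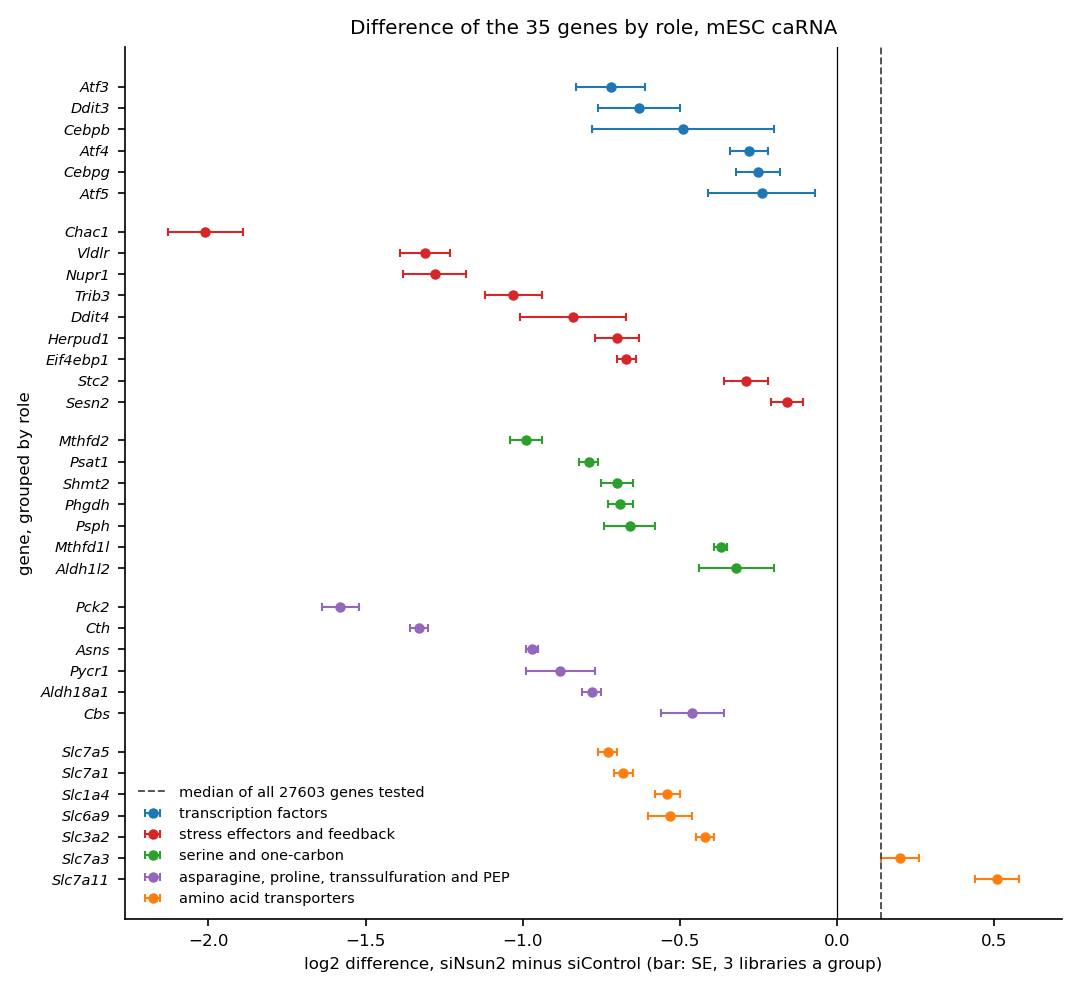
Log2 difference, siNsun2 minus siControl, of each of the 35 genes in mES cells (horizontal axis; bars are SE, 3 libraries a group), grouped by role, with a dashed line at the median of all 27603 genes tested (0.14). Of the 35 points 33 lie left of 0, and only Slc7a3 and Slc7a11 lie to its right.

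All 7 serine and one-carbon genes stood lower, with a median of -0.69. Psat1, the aminotransferase of serine synthesis, was at 132, 139 and 135 CPM in siControl and at 80.9, 77.9 and 76.3 CPM in siNsun2, a log2 difference of -0.79 ± 0.03. Phgdh, which catalyses the entry step of the pathway, and Psph, the phosphatase that ends it, differed by -0.69 ± 0.04 and -0.66 ± 0.08. The 3 enzymes of serine synthesis thus stood at 57.9% to 63.2% of siControl. Mthfd2, the mitochondrial folate enzyme of proliferating cells, was at 52.1, 48.6 and 49.2 CPM against 24.9, 24.4 and 26.0 CPM and had the largest difference of the 7, at -0.99 ± 0.05. Shmt2, which moves the serine carbon onto folate in mitochondria, differed by -0.70 ± 0.05. Mthfd1l and Aldh1l2, which release formate and carbon dioxide from mitochondrial folate, differed by -0.37 ± 0.02 and -0.32 ± 0.12, the latter at -0.14 with total gene counts. For Aldh1l2 the highest siNsun2 library, at 6.85 CPM, was above the lowest siControl library, at 6.76 CPM.

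The genes for asparagine, proline, cysteine and phosphoenolpyruvate synthesis had the lowest median of the 5 roles, at -0.93, and their summed level went from 715 to 720 CPM in siControl to 348 to 360 CPM in siNsun2. Pck2 (ENSMUSG00000040618.7, chr14:55540266-55551242, plus strand, mm10), the mitochondrial enzyme that makes phosphoenolpyruvate, was at 41.7, 43.6 and 43.4 CPM in siControl and 14.2, 15.6 and 13.3 CPM in siNsun2. Its log2 difference was -1.58 ± 0.06, rank 16 from the lowest, at 33.5% of siControl. Cth (ENSMUSG00000028179.12, chr3:157894248-157925077, minus strand, mm10), which makes cysteine from cystathionine, was at 122, 123 and 120 CPM against 48.5, 48.7 and 48.3 CPM. The replicates of Cth lay close together in both groups and its log2 difference was -1.33 ± 0.03, rank 44. Cbs, the preceding enzyme of transsulfuration, differed less than Cth did, at -0.46 ± 0.10, with 10.5 ± 0.594 CPM in siControl and 7.63 ± 0.266 CPM in siNsun2 (SD, n = 3).

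Asns, the asparagine synthetase gene and the most abundant of the 35, was at 422, 421 and 418 CPM in siControl and 216, 208 and 219 CPM in siNsun2. Its level was 51.0% of siControl and its log2 difference -0.97 ± 0.02, the smallest SE of the 15 genes given by library. Aldh18a1, the entry enzyme of proline synthesis, was at 113 CPM in all 3 siControl libraries and at 68.0, 63.5 and 66.2 CPM in siNsun2. Pycr1, which completes proline synthesis, was at 10.2, 9.20 and 9.49 CPM against 5.32, 4.58 and 5.76 CPM. The entry and final enzymes of proline synthesis differed by -0.78 ± 0.03 and -0.88 ± 0.11, and no siNsun2 library of either overlapped siControl.

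The amino acid transporters split. Slc7a5, the light chain of the large neutral amino acid exchanger LAT1, was at 126, 121 and 120 CPM in siControl and 73.5, 71.8 and 75.9 CPM in siNsun2, a log2 difference of -0.73 ± 0.03. Slc3a2, the heavy chain shared by LAT1 and the cystine exchanger, differed by -0.42 ± 0.03. Slc7a1, a cationic amino acid transporter, and the neutral amino acid and glycine transporters Slc1a4 and Slc6a9 differed by -0.68 ± 0.03, -0.54 ± 0.04 and -0.53 ± 0.07. Slc7a11, the cystine exchanger xCT, was the gene that stood apart. It was at 15.4, 18.5 and 17.3 CPM in siControl and at 24.1, 24.8 and 23.9 CPM in siNsun2, so that every siNsun2 library was above every siControl library (log2 difference 0.51 ± 0.07). Its annotated span in the reference is 551 kb, the longest of the 35, its level per kb was 1.20 and 1.13 times that of the olfactory receptor genes in siControl and siNsun2, and the part of that background in its values was not tested. Slc7a3, a second cationic transporter, was at 22.4, 20.9 and 24.7 CPM against 24.3, 26.9 and 26.8 CPM, with overlapping groups and a log2 difference of 0.20 ± 0.06, or 0.38 with total gene counts.

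The choice of the 15 genes given by library ended between Slc7a5 at -0.73 and Atf3 at -0.72. Of the 35 genes 8 share their strand and position with another annotated gene, in which case shared reads are not counted to either. They are Ddit3, Cebpg, Sesn2, Mthfd2, Mthfd1l, Aldh18a1, Cth and Slc7a11, so that their levels are uncertain while their differences between libraries rest on the remaining reads.

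Neighbouring genes of the same pathways that are not among the 35 were tested in the same fit. Of 89 such genes in 5 lists, 64 were called lower and 7 higher by edgeR's quasi-likelihood test at adjusted p under 0.05, beside the 24.3% lower and 25.8% higher among all genes tested. Their median log2 difference was -0.23, and that of the 5534 genes tested with a mean of at least 5 log2 CPM was -0.21. With total gene counts as the scaling 35 were lower and 17 higher, beside 2595 lower and 10232 higher of all 27603 genes tested. The median of all genes was then 0.32, and that of the 5534 genes -0.03. The medians of the ER chaperone and NRF2 lists turned from -0.17 to 0.01 and from -0.10 to 0.08, while those of the other 3 lists stayed below 0. The lists were written with earlier results of these data known.

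The cytosolic aminoacyl-tRNA synthetases, which charge tRNAs and include known ATF4 targets, were lower throughout with TMM. All 20 tested were called lower with a median of -0.45, beside 24.3% of all genes tested. The 5534 genes of at least 5 log2 CPM had a median of -0.21. With total gene counts as the scaling 14 were lower and 0 higher with a median of -0.27. Under that scaling 2595 of all 27603 genes tested were lower and 10232 higher, and the 5534 genes had a median of -0.03. Farsa and Qars then stood at 0.05 and 0.01 and were not called. Gars, for glycine, was at 268, 270 and 274 CPM in siControl and 150, 151 and 154 CPM in siNsun2 (log2 difference -0.84 ± 0.03, adjusted p = 5.89e-46, edgeR). Nars, for asparagine, was at 114, 113 and 117 CPM against 66.7, 63.5 and 63.3 CPM (-0.83 ± 0.03, adjusted p = 3.52e-37, edgeR).

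Of the 16 genes for eIF2 kinases, the eIF2 phosphatase and the exchange factor eIF2B, 12 were lower, 0 higher and 4 not called (median -0.25), and 8 were lower with total gene counts as the scaling (median -0.07). The 5534 genes of at least 5 log2 CPM had medians of -0.21 and -0.03 under the 2 scalings, near those of the list, and 24.3% of all genes tested were lower with TMM. Ppp1r15a, encoding GADD34, the stress-induced phosphatase subunit that is itself an ATF4 target, had the largest difference, at 9.03 ± 0.176 CPM in siControl and 5.45 ± 0.918 CPM in siNsun2 (SD, n = 3; log2 difference -0.73 ± 0.12, adjusted p = 9.84e-08, edgeR). Its constitutive counterpart Ppp1r15b fell by 0.44 ± 0.05 on the log2 scale (adjusted p = 3.5e-12, edgeR). The kinase genes Eif2ak1, Eif2ak2, Eif2ak3 and Eif2ak4, for HRI, PKR, PERK and GCN2, had log2 differences of -0.30, -0.35, -0.12 and -0.33. With total gene counts as the scaling these were -0.12, -0.17, 0.06 and -0.15, and Eif2ak3 was no longer called (adjusted p = 0.139, edgeR).

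**Figure D4:**
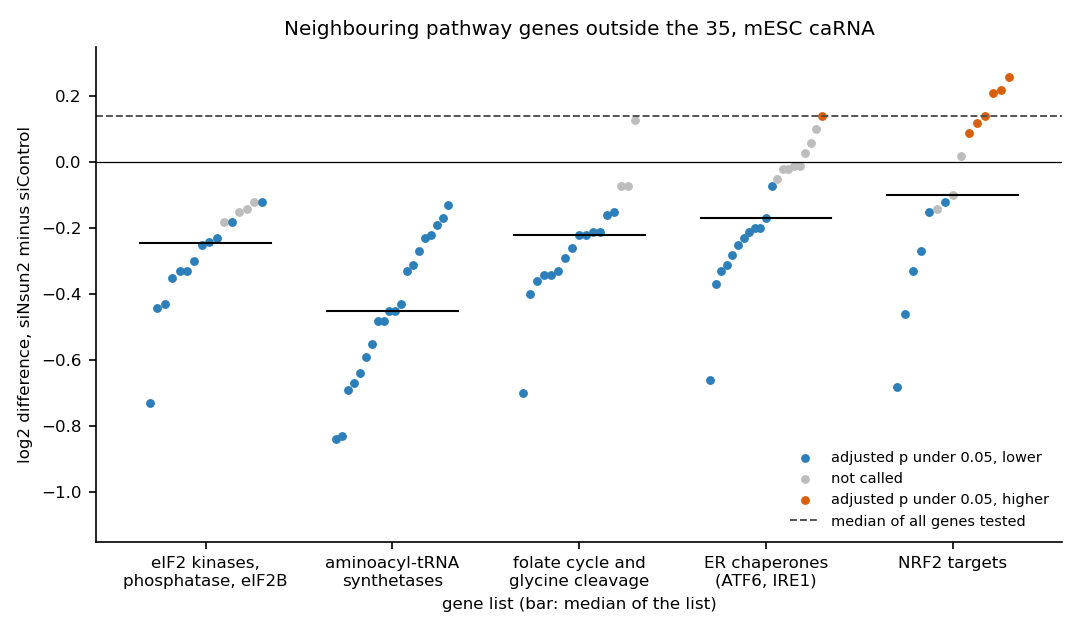
Log2 difference, siNsun2 minus siControl, of each gene in 5 lists of neighbouring pathways outside the 35 genes (vertical axis), coloured by call in edgeR, with a bar at each list's median and a dashed line at the median of all genes tested. All 20 aminoacyl-tRNA synthetase genes are coloured as lower, while NRF2 target genes lie on both sides of 0.

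Of 17 other folate cycle and glycine cleavage genes, 14 were lower, 0 higher and 3 not called (median -0.22), and 7 were lower and 2 higher with total gene counts as the scaling. Beside them, 24.3% of all genes tested were lower, and the 5534 genes of at least 5 log2 CPM had a median of -0.21, near that of the list. Sfxn1, a mitochondrial serine carrier gene, fell by 0.40 ± 0.04 on the log2 scale (adjusted p = 5.93e-17, edgeR). Among 21 ER chaperone and sensor genes of the ATF6 and IRE1 arms, 12 were lower and 1 higher (median -0.17), but 3 lower and 8 higher with total gene counts. Under that scaling 2595 of all 27603 genes tested were called lower and 10232 higher. Ern1, which encodes IRE1, went from 99.8 ± 3.22 to 77.3 ± 1.98 CPM (log2 difference -0.37 ± 0.03, adjusted p = 3.13e-16, edgeR), and Sdf2l1, an ER chaperone cofactor gene with 2.31 ± 0.550 CPM in siControl, had a log2 difference of -0.66 ± 0.23 (adjusted p = 0.0113, edgeR, and 0.0771 with total gene counts). Hspa5, the main ER chaperone BiP, had a log2 difference of 0.03 ± 0.03 and was not called, but it was called higher with total gene counts, at 0.21 (adjusted p = 2.35e-09, edgeR). That value lay below the median of all genes tested under the same scaling, 0.32, so no rise of Hspa5 relative to other genes is read from it. Hspa5 was named after its value was seen.

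The NRF2 target genes, which answer oxidative stress and share Slc7a11 with the ATF4 programme, were 6 lower, 6 higher and 3 not called (median -0.10), and 3 lower and 7 higher with total gene counts. Of all 27603 genes tested, 2595 were lower and 10232 higher under that scaling. Hmox1, heme oxygenase, went from 19.5 ± 0.935 to 12.2 ± 0.454 CPM (SD, n = 3; log2 difference -0.68 ± 0.08, adjusted p = 1.43e-12, edgeR), and Slc48a1, a heme transporter gene, fell by 0.46 ± 0.15 on the log2 scale (adjusted p = 0.00722, edgeR, and 0.119 with total gene counts). Among the genes called higher were the glutathione synthesis genes Gclc at 0.21 and Gclm at 0.12 and the thioredoxin reductase gene Txnrd1 at 0.14, named after their values were seen.

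The single library labelled Pspc1 WT was mES caRNA, and the labels do not say whether it was prepared together with siControl. It held 91990658 gene counts and 27807 genes with a count, against 36407 to 36464 genes in siControl. With 1 library there is no test, and any difference in preparation cannot be told apart from the condition. Its values are therefore given beside siControl only, with all 7 libraries scaled together by TMM. Of the 35 genes 27 were lower and 8 higher there than the siControl mean, and the median ratio was 0.659. The ratio over all genes is not given here, so nothing particular to the 35 is read from these counts. The part of a general shift between the libraries in these values was not tested. Chac1 was at 2.33 CPM against 10.9 CPM (ratio 0.214), Atf3 at 2.38 against 9.58 CPM (0.248) and Cebpb at 0.156 against 1.20 CPM (0.131). Atf4 was at 39.7 against 31.6 CPM (1.26), Asns at 319 against 411 CPM (0.777), Pck2 at 29.7 against 41.9 CPM (0.709) and Cth at 89.6 against 119 CPM (0.754). Slc7a11 had the lowest ratio, 0.0265, and Cbs and Slc7a3 the highest, 2.75 and 2.29. The values of this 1 library thus stood away from the siControl mean in several of the 35 genes, Chac1 included, with no measure of its own spread.

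In K562, whose libraries the choice of genes did not use, the human orthologues could be tested. ASNS was listed at 0 in all 12 libraries and lies on the strand of an overlapping annotated gene, ENSG00000284707, which leaves 34 orthologues. The counts of TET2 over the whole gene were 121 ± 2.59 CPM in the libraries labelled TET2 WT shControl and 129 ± 2.23 CPM in those labelled TET2 KO shControl (SD, n = 3), with the lowest level, 94.8 ± 5.28 CPM, in those labelled TET2 KO shMBD6. A whole-gene count does not check a knockout that leaves the RNA. MBD6 averaged 41.5 ± 2.55 CPM in the TET2 WT cells with the control hairpin and 28.0 ± 2.71 CPM in those with shMBD6. In the libraries labelled TET2 KO it went against the labels, with 30.3 ± 0.750 CPM under shControl and 34.4 ± 3.86 CPM under shMBD6. MBD6 in the libraries labelled TET2 KO shControl was thus below TET2 WT shControl (log2 difference -0.46 ± 0.08, adjusted p = 6.5e-06, edgeR) and near the level of TET2 WT shMBD6. No contrast is drawn from the libraries labelled TET2 KO shMBD6. Those labelled TET2 KO shControl are compared under their label, which MBD6 does not bear out and TET2 does not check, so that each direction given for them rests on the label.

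Between the libraries labelled TET2 KO shControl and TET2 WT shControl, 22 orthologues were lower, 6 higher and 6 not called by edgeR's quasi-likelihood test at adjusted p under 0.05, against 22.3% lower and 23.5% higher among all 26023 genes tested. The median of the 34 was -0.22 on the log2 scale and that of all genes -0.05, and with total gene counts as the scaling they were -0.40 and -0.23. ATF4 itself was at 43.7, 41.4 and 41.7 CPM in TET2 WT and 31.4, 27.8 and 30.5 CPM in the libraries labelled TET2 KO (log2 difference -0.50 ± 0.07, adjusted p = 6.79e-07, edgeR). Of the 7 serine and one-carbon genes 6 were lower and 1, PSPH, was not called, with PHGDH at 302 ± 6.34 against 202 ± 3.55 CPM (log2 difference -0.58 ± 0.03, adjusted p = 2.09e-16, edgeR). PHGDH was named after its value was seen.

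The orthologues with the largest called differences in this comparison included genes that moved up and genes that moved down. NUPR1 was at 1.69, 0.662 and 1.35 CPM in TET2 WT and 6.44, 7.35 and 5.28 CPM in the libraries labelled TET2 KO (log2 difference 2.38 ± 0.25, adjusted p = 8.04e-10, edgeR). VLDLR was at 4.58, 5.85 and 4.14 CPM against 2.37, 2.70 and 2.81 CPM (-0.89 ± 0.19, adjusted p = 0.000252, edgeR). DDIT4 was at 80.5, 75.6 and 79.3 CPM against 43.2, 45.1 and 39.8 CPM (-0.88 ± 0.06, adjusted p = 4.78e-15, edgeR). For these 3 genes the groups did not overlap. ATF3 was at 44.5, 41.8 and 42.3 CPM against 27.9, 26.4 and 24.8 CPM (-0.70 ± 0.06, adjusted p = 1.81e-11, edgeR). SLC7A3 had 1 count over the 3 TET2 WT libraries and 29 over the 3 libraries labelled TET2 KO, a ratio of 32.7 per gene count (95% exact interval 5.42 to 1340, which covers counting error only). By library it was at 0, 0 and 0.00995 CPM against 0.2025, 0.1916 and 0.0132 CPM. Replicate 3 labelled TET2 KO thus lay near replicate 3 of TET2 WT, and the pooled ratio does not show this. CHAC1, the gene with the largest difference in mES cells, was at 4.53 ± 0.154 and 5.07 ± 0.410 CPM (SD, n = 3; log2 difference 0.16 ± 0.17, adjusted p = 0.454, edgeR).

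Between TET2 WT shMBD6 and TET2 WT shControl, 25 orthologues were lower, 5 higher and 4 not called, against 24.7% lower and 17.7% higher among all genes tested. This comparison shares its 3 TET2 WT shControl libraries with the previous one. Reads assigned to no annotated gene were 13.1% to 13.3% of records in TET2 WT shControl and 15.6% to 16.0% in TET2 WT shMBD6. In the libraries labelled TET2 KO shControl they were 15.0%. The part of these shifts in either comparison was not tested, and no comparison with genes of like level is given for K562. The median of the 34 was -0.36 and that of all genes 0.10, and with total gene counts they were -0.26 and 0.19. ATF4 was at 28.3, 31.7 and 25.9 CPM under shMBD6 (log2 difference -0.56 ± 0.07, adjusted p = 8.72e-08, edgeR), below all shControl libraries. All 7 serine and one-carbon genes were lower, with a median of -0.31, as were 6 of 9 stress effectors and feedback genes, 4 of 6 transcription factors and 4 of 7 transporters. Of the 5 tested genes for proline, cysteine and phosphoenolpyruvate synthesis 4 were lower and PYCR1 was not called.

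**Figure D5:**
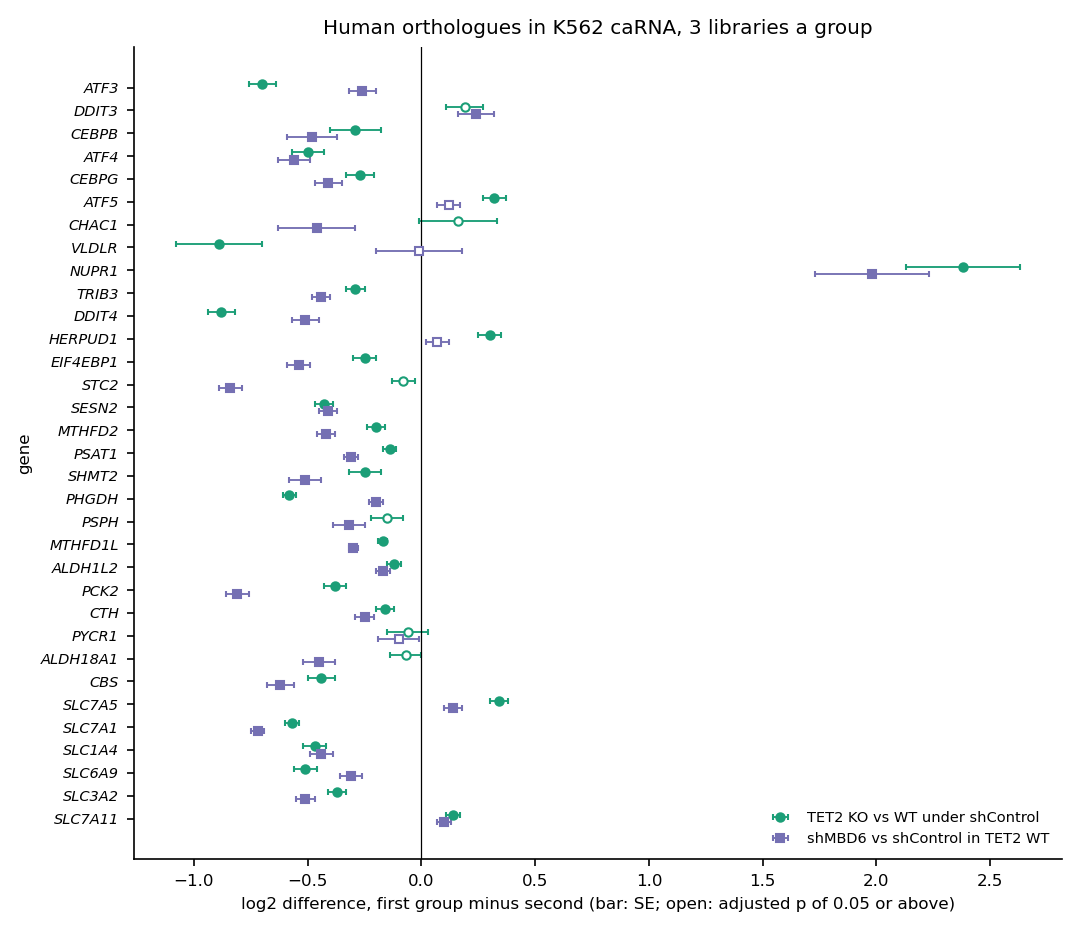
Log2 difference of 33 human orthologues in K562, for the libraries labelled TET2 KO against TET2 WT under shControl (circles) and shMBD6 against shControl in TET2 WT (squares), with SE bars from edgeR and open symbols where adjusted p was 0.05 or above. ASNS, at 0 in every library, and SLC7A3, with 1 count in the reference group, are left out, and NUPR1 lies far to the right in both comparisons.

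NUPR1 again stood higher, at 5.03, 4.02 and 5.37 CPM under shMBD6 (log2 difference 1.98 ± 0.25, adjusted p = 4.65e-08, edgeR), and an overlapping gene on its strand, ENSG00000289754, makes its level uncertain. STC2 was at 60.2, 55.9 and 58.7 CPM under shControl and 32.7, 32.5 and 32.7 CPM under shMBD6 (-0.84 ± 0.05, adjusted p = 2.68e-15, edgeR). PCK2 was at 63.9, 66.8 and 69.1 CPM against 40.5, 36.4 and 36.7 CPM (-0.81 ± 0.05, adjusted p = 2.14e-14, edgeR). The groups were apart for both genes. SLC7A1 was at 301, 290 and 294 CPM against 183, 176 and 179 CPM (-0.72 ± 0.03, adjusted p = 1.43e-19, edgeR). SLC7A3 had 34 counts over the shMBD6 libraries, a ratio of 45.1 to the 1 count under shControl (95% exact interval 7.57 to 1830). By library it was at 0.2178, 0.0882 and 0.1137 CPM under shMBD6. CHAC1 went from 4.53 ± 0.154 to 3.29 ± 0.536 CPM (SD, n = 3; log2 difference -0.46 ± 0.17, adjusted p = 0.0283, edgeR). That call was lost when size factors of DESeq2 or total gene counts set the scaling, when no filter was applied and in DESeq2, and without TET2 WT shControl replicate 1 or 2 (log2 difference -0.44 and -0.48) or TET2 WT shMBD6 replicate 1 or 2 (-0.44 and -0.37).

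SLC7A11, whose mouse orthologue stood apart in mES cells, is given here for K562 with the transporter genes SLC7A5 and SLC3A2. SLC7A11, at 572 ± 14.4 CPM in TET2 WT shControl, was at 632 ± 15.2 CPM in the libraries labelled TET2 KO (log2 difference 0.14 ± 0.03, adjusted p = 4.2e-05, edgeR, and -0.03 with total gene counts) and at 615 ± 15.8 CPM under shMBD6 (0.10 ± 0.03, adjusted p = 0.00197, edgeR). SLC7A5 was higher in both comparisons, by 0.34 ± 0.04 and 0.14 ± 0.04 on the log2 scale (adjusted p = 5.97e-09 and 0.00458, edgeR; the second was lost without TET2 WT shControl replicate 2 or 3, at 0.107 and 0.108), whereas its partner SLC3A2 was lower in both, by -0.37 and -0.51. These 2 genes of the same transporter were both lower in mES cells under siNsun2. In the libraries labelled TET2 KO shMBD6, ATF4 stood at 38.0 ± 3.02 CPM, CHAC1 at 6.66 ± 0.473 CPM, PCK2 at 74.0 ± 2.70 CPM and CTH at 101 ± 1.76 CPM (SD, n = 3). In that order they averaged 42.3, 4.53, 66.6 and 103 CPM in TET2 WT shControl and 28.6, 3.29, 37.9 and 86.4 CPM in TET2 WT shMBD6. In the libraries labelled TET2 KO shControl they averaged 29.9, 5.07, 51.0 and 92.1 CPM. NUPR1 stood at 2.11 and SLC7A11 at 491 CPM in those labelled TET2 KO shMBD6. The part of the labelling in these values was not tested. CBS has a near-identical copy in hg38, so that its counts in K562 are uncertain.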

How the data were processed

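Chromatin-associated RNA was sequenced by the authors from mES cells and K562 after depletion of ribosomal RNA, with a stranded kit. Per the submitters' processing notes, reads were trimmed with Trimmomatic 0.39, aligned with HISAT2 2.2.1 to mm10 or hg38 and counted with HTSeq 0.12.4. The deposited values are raw read counts per gene, 1 table per library, and summary lines without a gene did not enter library sizes (reads assigned to no gene were 19.6% to 29.9% of records in siControl and siNsun2). The tables held 0 lines of spike-in RNA, so that changes are relative to other genes. No source used here gives the feature type or strand option of counting. Of 4269 mouse genes lying within an intron of another gene on their strand, 4264 were at 0 in every library, as were 98.4% of such human genes, against 11.5% and 28.9% for the opposite strand. The tables were hence taken to hold stranded counts over exons and introns, without reads shared by overlapping genes.

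Counts were fitted across all genes with edgeR 4.0.16 in R 4.3.3 (TMM, filterByExpr with a minimum count of 10, robust quasi-likelihood test, Benjamini-Hochberg adjustment, threshold 0.05), with 3 mES libraries a group and, in K562, all 12 libraries sharing 1 spread. The spread between libraries was above sampling noise in every pair (chi-square per degree of freedom 3.92 to 14.9). Symbols, spans and positions came from reference annotations of GRCm38 and GRCh38, to which 99.9% and 99.2% of identifiers matched. The members and lists were chosen with earlier results of these data known. Values in every library are given for Atf4, Ddit3, Chac1, Pck2, Cth and the 10 other members with the largest absolute log2 difference, for the 5 called orthologues with the largest in each K562 comparison, and, of each other list, the 2 called genes with the largest were named, apart from 1 that is not reported here. Same-numbered libraries deviated together between TET2 WT shControl and TET2 WT shMBD6 (correlations 0.452, 0.190 and 0.191, from the data only), although replicates 2 and 3 correlated as strongly across numbers (0.196 and 0.198), so that replicate 1 stood apart from the others. They did not do so between siControl and siNsun2 (-0.0390, 0.0244 and -0.0373) nor throughout between TET2 WT and TET2 KO under shControl (0.318, 0.0723 and 0.201). Alternatives were other scalings, no filter or a minimum count of 50, DESeq2 1.42.0, the replicate block, and leaving out each library. The script was checked on simulated counts.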

Additional observations from a re-analysis of the deposited data

How the results depend on the processing

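In mES cells, the members called lower numbered 30 to 31 and those called higher 1 to 2 over leaving out each library (the count of 1 came without siControl replicate 2, where Slc7a3 was no longer called). Those called higher were 1 with DESeq2 size factors, 1 with DESeq2 and 1 at an absolute log2 difference of at least 0.5. Of the neighbouring pathway genes, 35 were lower and 17 higher with total gene counts, and 31 and 18 when scaled on 11736 genes at 10 times the olfactory receptor level, while 3 were higher with DESeq2 size factors and 3 with DESeq2. Of all 27603 genes tested, 2595 were lower and 10232 higher with total gene counts, and 2384 and 10506 when scaled on genes above background. Called lower over leaving out each library were 56 to 62 of the neighbouring pathway genes, and higher 5 to 6. The sign of Sesn2 turned to 0.0217 with total gene counts and 0.0331 when scaled on genes above background.

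In K562, the orthologues lower in the libraries labelled TET2 KO numbered 21 to 22 and those higher 5 to 6 over leaving out each library, and under shMBD6 24 to 25 and 2 to 5, with 2 without TET2 WT shControl replicate 2, 3 without TET2 WT shControl replicate 3 and 3 without TET2 WT shMBD6 replicate 1. The replicate block gave 25 lower and 5 higher under shMBD6, 23 and 5 in TET2 KO, and 31 and 2 for the members in mES cells. In TET2 KO, CHAC1 turned to -0.0127 and SLC7A11 to -0.0347 with total gene counts. Under shMBD6, VLDLR, at -0.01 and not called, turned to 0.105 with DESeq2 size factors, 0.0910 with total gene counts, 0.0991 with no filter, 0.0534 with the stricter filter, 0.104 with DESeq2 and 0.00633 with the replicate block, and ranged from -0.114 to 0.147 without single libraries, and PYCR1, not called, turned to 0.00541 with DESeq2 size factors, 0.000837 with no filter and 0.00509 with DESeq2. The cause of these changes was not tested, other than that fewer libraries enter when one is left out. Sampling limits Cebpb, Atf5 and Ddit4 in mES cells and CHAC1, VLDLR, NUPR1 and SLC7A3 in K562, which rest on the lowest counts.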
